A study of Mus musculus with 26 samples.

Results

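The miR-15/16 family was measured as 6 miRNA precursors, mmu-mir-15a, mmu-mir-15b, mmu-mir-16-1, mmu-mir-16-2, mmu-mir-195a and mmu-mir-497a (the prefix for mouse is left out below), in 26 small RNA libraries of the mouse hippocampus. They were picked by name, with earlier results of these data known, and are 6 of the 1054 miRNA entries in the table of counts. All 6 passed the filter on low counts, as did 463 of the 1054 entries. In these data, 5 of the 6 precursors (all but mmu-mir-15b) were higher in the dorsal than in the ventral hippocampus of control mice, from 1.39-fold for mmu-mir-195a to 2.11-fold for mmu-mir-15a, with mmu-mir-16-1 at 1.57-fold. Of all 463 entries tested, 7.78% were called higher there, and the 5 entries stand for 4 distinct mature miRNAs, since mir-16-1 and mir-16-2 give the same one. The swim moved none of them beyond the spread between libraries. The same 5 also differed between the processing blocks of the study, as did 53.1% of all entries.

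The study asked which molecules of the hippocampus respond to acute stress. Male C57BL/6J mice of 2 to 3 months either stayed in the home cage (control) or swam for 6 min in water of 18 °C (swim), and tissue of swim mice was collected 45 min after onset of the stress. Tissue of both hemispheres was split into dorsal (dHC) and ventral (vHC) hippocampus. Control mice gave 8 vHC and 6 dHC libraries and swim mice 6 of each region, all made with the Nextflex v3 small RNA kit. No mouse carried a transgene or mutation according to the labels. The labels also give each library a processing block by date. Block 1 held 4 control vHC libraries and 2 of each other group, and blocks 2 and 3 held 2 of every group. The libraries carry numbers that are not shared between groups, and the labels do not say which dHC and vHC libraries came from the same mouse. The p-values therefore measure the spread between these libraries only.

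A miRNA is a short RNA that guides Argonaute proteins to mRNAs, mostly by pairing of its seed, bases 2 to 8 from the 5′ end, and so lowers the stability and translation of those mRNAs. Members of the miR-15/16 family share a seed and are known for restraining the cell cycle and promoting apoptosis, among others through mRNAs of D-type and E-type cyclins and of Bcl2. They are found in most tissues. The locus of miR-15a and miR-16-1 is often deleted in chronic lymphocytic leukaemia, and in the heart after birth the family is known for limiting the division of muscle cells. The precursors lie in 3 pairs in the genome, each pair close together, so that the members of a pair are usually made from a shared primary transcript.

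The mature sequences are shown because the family is defined by them. The counts are per precursor, and which strand's reads each count holds is not stated. In each line the seed is in capitals, and the sequences are those of RefSeq for GRCm38.p6. The first 5 lines are the guide strands of the 6 members, of which mir-16-1 and mir-16-2 both give miR-16-5p. The last 4 lines are the related miRNAs that were also tested. Of these, miR-322-5p has the seed of the family, and the seed of miR-503-5p differs from it in the last base. The seeds of miR-103-3p and miR-107-3p are shifted by 1 base.
miR-15a-5p: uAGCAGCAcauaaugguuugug
miR-15b-5p: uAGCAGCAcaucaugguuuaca
miR-16-5p: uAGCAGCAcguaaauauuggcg
miR-195a-5p: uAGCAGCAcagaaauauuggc
miR-497a-5p: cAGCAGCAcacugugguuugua
miR-322-5p: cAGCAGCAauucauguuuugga
miR-503-5p: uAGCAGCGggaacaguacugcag
miR-103-3p: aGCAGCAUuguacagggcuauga
miR-107-3p: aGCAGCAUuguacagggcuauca

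The 5 guide strands of the family carry the same seed, which was found in 10 of 1679 mature mouse miRNAs of the RefSeq table. Outside the seed they differ. Counted from the 5′ end of miR-16-5p, miR-195a-5p differs at 2 of 21 positions compared (G10A and U11G). miR-15a-5p is identical to miR-16-5p at 16 of 22 positions, miR-15b-5p at 14 of 22 and miR-497a-5p at 11 of 22, and miR-497a-5p is the only one that differs at base 1 (U1C). miR-15a-5p and miR-15b-5p are identical to each other at 18 of 22 positions.

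The other strands of the mir-16 precursors are shown because they are where these copies can be told apart, with no capitals since they are not of the family by seed.
miR-16-1-3p: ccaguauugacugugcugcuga
miR-16-2-3p: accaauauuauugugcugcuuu
These share 12 of 22 positions.

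In GENCODE vM21 on GRCm38, mir-15a (chr14:61632027-61632110) and mir-16-1 (chr14:61631880-61631972) lie 54 bases apart on the minus strand, in introns of all 8 transcripts of the non-coding gene Dleu2 that span them. The precursors mir-15b (chr3:69009772-69009835) and mir-16-2 (chr3:69009902-69009996) lie 66 bases apart on the plus strand, in introns of all 5 spanning transcripts of Smc4, which codes for a condensin subunit. The pair mir-497a (chr11:70234717-70234800) and mir-195a (chr11:70235042-70235135) is 241 bases apart on the plus strand with no host gene on that strand in this annotation. The precursor mir-497b lies antisense to mir-497a, and its own entry held 0 to 2 counts per library.

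The miRNA counts of a library summed to a median of 2614270, from 465387 to 4819724. The lowest was control dHC library 24 of block 2, and every other library had 1357739 or more. In library 24 the members still had counts between 105 (mir-15a) and 1441 (mir-16-1). Levels are given as normalised CPM, which are counts scaled to the library's miRNA total after TMM normalization (a scaling by the trimmed mean of log ratios). Tissue identity was checked with the neuronal miRNAs mir-124 and mir-9, whose 6 entries, 3 near-equal copies of each, summed to between 125216 and 267480 CPM in every library. The guide strands of the family are 21 or 22 bases long, so counts of different members needed no correction for length.

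Within the family, mir-16 was the most abundant and mir-195a came next. As a share of all miRNA counts of a library, mir-16-1 averaged 0.388%, mir-195a 0.187%, mir-15a 0.0632%, mir-497a 0.0415% and mir-15b 0.0372%. The entry mir-16-1 ranked 70 among the 1054 entries by mean share, mir-195a ranked 96 and mir-15b, the least abundant member, 180. The order mir-16-1, mir-16-2, mir-195a and then the other members held in 26 of 26 libraries. The last places did not have a fixed order. mir-15a was above mir-497a in 20 of 26 libraries and above mir-15b in 16 of 26, and mir-497a was above mir-15b in 14 of 26. This order differed between blocks, with mir-15a above mir-15b in 9 of 10 libraries of block 1, 2 of 8 of block 2 and 5 of 8 of block 3. mir-497a was above mir-15b in 9 of 10 libraries of block 1, 0 of 8 of block 2 and 5 of 8 of block 3.

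The levels of mir-16-1 and mir-16-2 were nearly equal in every library. mir-16-1 was higher by a median of 29 counts, or by 0.030% to 0.74% of their mean, in 26 of 26 libraries. The entries also held fractions of a count in 21 of 26 libraries each. mir-195a did so in 22 of 26 and mir-15a and mir-15b in 14 of 26 each, while mir-497a held whole counts in all. Reads split between entries may thus reach beyond the mir-16 copies, which was not tested. Because miR-16-5p is the same from both mir-16 precursors, the level of a single mir-16 copy is uncertain. The calls for mir-16-1 and mir-16-2 count the same molecules, and the values below are given for mir-16-1.

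**Figure D1:**
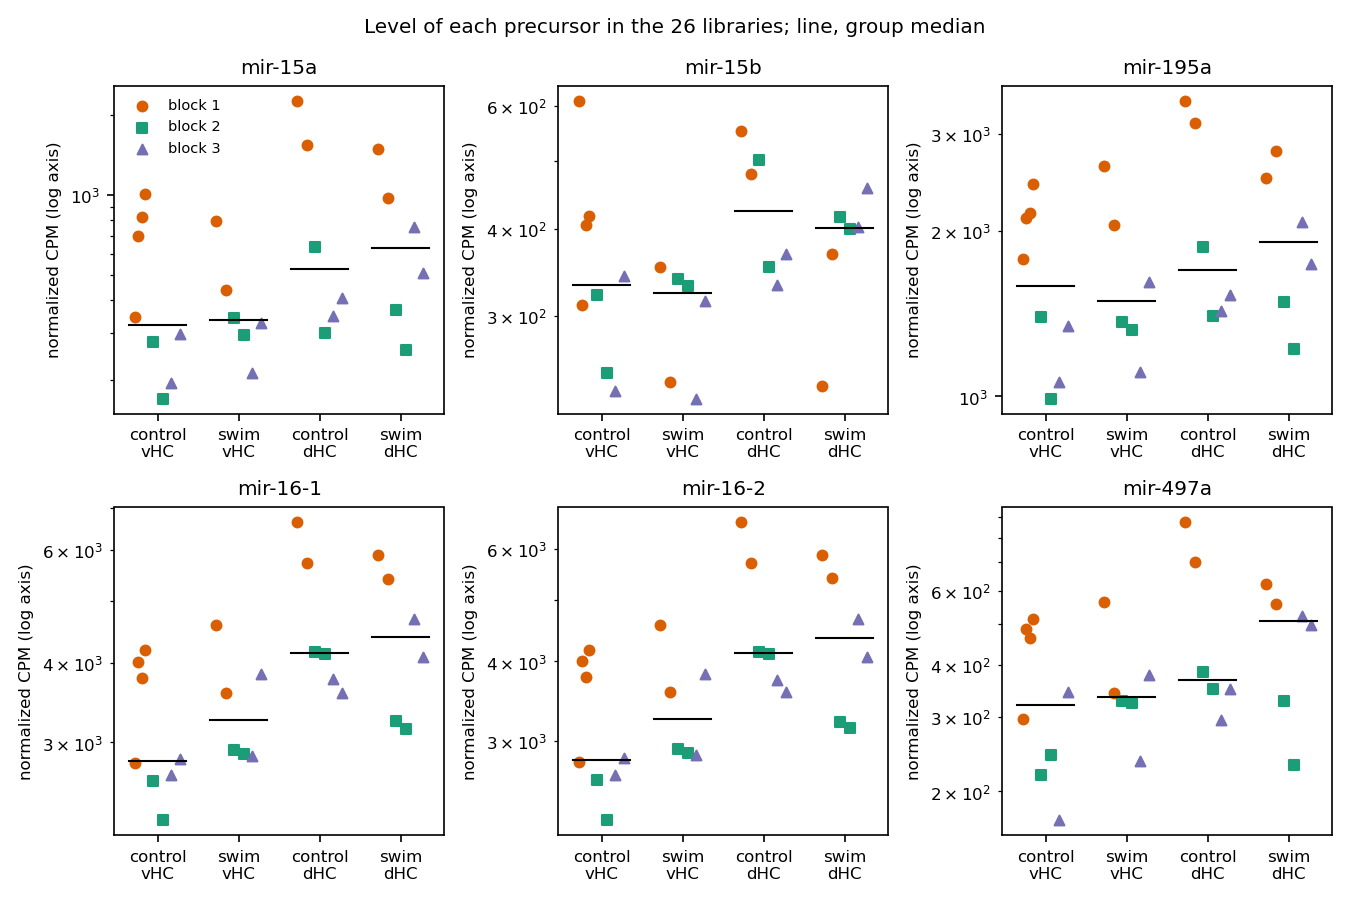
Level of each of the 6 precursors in the 26 libraries, on a log axis of normalised CPM, by group and with the block as colour and shape; the line is the group median. Libraries of block 1 are at the top of most groups for mir-15a and mir-195a, and the dHC groups are above the vHC groups for mir-16-1 within a block.

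The level of mir-15a in control vHC was between 170.1 and 1005 CPM with a median of 321, and in swim vHC between 212 and 797 with a median of 336. In dHC it was between 301 and 2262 (median 523) in control mice and between 259 and 1484 (median 630) after the swim. As the ratio of its highest to its lowest library, mir-15a had the widest range of the family, and the highest library of each group was in block 1. All 4 groups overlapped.

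The level of mir-16-1 in control vHC was between 2267 and 4187 CPM with a median of 2804, and in swim vHC between 2860 and 4576 with a median of 3253. In dHC it was between 3591 and 6635 (median 4146) in control mice and between 3147 and 5904 (median 4381) after the swim. The lowest control dHC library was thus above the median of control vHC, with overlap in the block 1 libraries of control vHC.

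The level of mir-195a was from 991 to 2433 CPM in control vHC, with a median of 1589, and from 1106 to 2629 in swim vHC, with a median of 1492. In dHC the range was 1400 to 3451 (median 1699) for control mice and 1218 to 2803 (median 1911) for swim mice. The medians of the 4 groups lay closer to each other than the lowest and highest library of any group.

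The level of mir-497a was from 171 to 514 CPM in control vHC, with a median of 321, and from 236 to 562 in swim vHC, with a median of 336. In dHC the range was 296 to 872 (median 367) for control mice and 231 to 622 (median 509) for swim mice. The groups overlapped, as for its neighbour mir-195a.

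The level of mir-15b was from 235 to 610 CPM in control vHC, with a median of 332, and from 229 to 352 in swim vHC, with a median of 323. In dHC the range was 332 to 554 (median 424) for control mice and 238 to 458 (median 401) for swim mice. Its highest library was control vHC library 1, and it was the only member whose highest swim dHC library was not in block 1.

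The 6 entries together held 0.909% ± 0.270 (SD, n = 8) of miRNA counts in control vHC and 0.963% ± 0.226 (n = 6) in swim vHC. They held 1.35% ± 0.547 (n = 6) in control dHC and 1.26% ± 0.329 (n = 6) in swim dHC. By block the share was 1.39% ± 0.406 (n = 10) in block 1, 0.863% ± 0.199 (n = 8) in block 2 and 0.982% ± 0.279 (n = 8) in block 3. Of the mean share of 1.10% over all libraries, mir-16-1 and mir-16-2 made up 0.388% and 0.387%, so that miR-16-5p enters the sum through both. This share is a description and was not tested.

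The first comparison was of swim with control, as the study was designed to test it. The quasi-likelihood test of edgeR, with 2 surrogate variables (estimated hidden factors) in the model, called 0 of the 6 members at an adjusted p of 0.05. It also called 0% of the 463 entries, for both stress coefficients together, in vHC, in dHC and for the interaction of stress with region. The smallest adjusted p over all entries was 0.725 for the coefficients together, 0.523 in vHC, 0.982 in dHC and 0.954 for the interaction. At an unadjusted p under 0.05 there were 16, 34, 17 and 23 entries in these tests, of which 1 was a member, mir-15a in vHC. DESeq2 also called 0 entries in each, with 16, 39, 18 and 20 below that unadjusted p, and limma-voom called 0 with 31, 48, 20 and 21.

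In vHC, mir-15a was at a log2 fold change of -0.23 after the swim (SE 0.11, 95% confidence interval -0.45 to -0.0091, adjusted p = 0.617, edgeR). The direction was not the same in all blocks. The mean of the libraries of swim minus that of control, on the log2 scale, was -0.18 in block 1, 0.54 in block 2 and 0.13 in block 3. With block in the model in place of the surrogate variables, the fold change was 0.16 (SE 0.25, adjusted p = 0.781).

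The other members in vHC were within the same spread. mir-16-1 was at 0.11 (SE 0.08, interval -0.05 to 0.27, adjusted p = 0.679 by edgeR), with differences of 0.15, 0.25 and 0.27 in blocks 1, 2 and 3. With block in the model it was at 0.23 (SE 0.10, adjusted p = 0.428). mir-15b was at -0.29 (SE 0.18, interval -0.65 to 0.08), mir-195a at -0.02 (SE 0.08, interval -0.19 to 0.15) and mir-497a at 0.05 (SE 0.11, interval -0.18 to 0.29). Their adjusted p was between 0.655 and 0.968.

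In dHC the log2 fold changes were smaller than their spread for each member. mir-15a was at -0.10 (SE 0.11, interval -0.34 to 0.13, adjusted p = 0.982 by edgeR) and mir-16-1 at -0.07 (SE 0.08, interval -0.24 to 0.10). mir-15b was at -0.16 (SE 0.19), mir-195a at -0.04 (SE 0.09) and mir-497a at -0.02 (SE 0.12). Block by block, mir-16-1 was at -0.13, -0.38 and 0.25 in blocks 1, 2 and 3, and mir-15a was at -0.64, -0.50 and 0.71. Over the 6 members, 15 of 18 within-block differences were above 0 in vHC and 6 of 18 in dHC, where those above 0 were those of block 3. They are plain differences of means, without surrogate variables, and need not have the sign of the fitted value. Nor are they independent, since the mir-16 entries give the same miRNA and members share libraries. No such count was made over all entries. In the fit with surrogate variables, the median over the members was 0.02 in vHC and -0.07 in dHC, beside -0.03 and 0.02 over all 463 entries.

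The difference of the stress effects between regions was tested as the interaction. It was -0.18 for mir-16-1 (SE 0.11, interval -0.42 to 0.05, adjusted p = 0.954 by edgeR) and between -0.07 and 0.13 for mir-15a, mir-15b, mir-195a and mir-497a. With block instead of surrogate variables it was -0.32 for mir-16-1 (SE 0.15, adjusted p = 0.834) and the same adjusted p held for mir-195a (-0.24, SE 0.18).

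**Figure D2:**
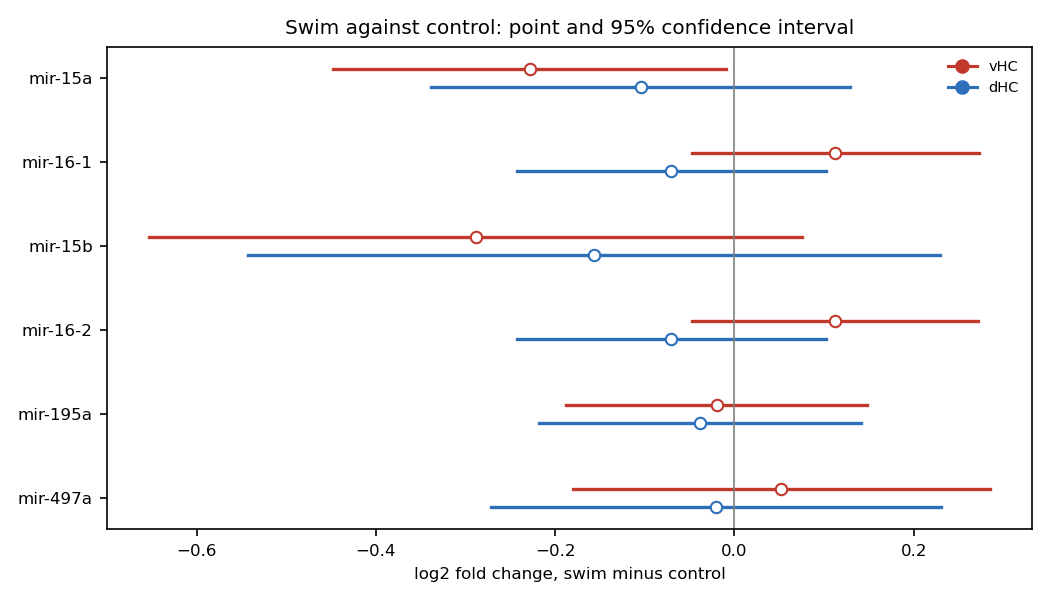
Log2 fold change of each member after the swim, for vHC and dHC, with the 95% confidence interval of the edgeR fit as a bar. All symbols are open because no adjusted p was under 0.05, and only the vHC interval of mir-15a (-0.45 to -0.0091) does not reach 0.

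The second comparison was of the regions, fitted with block in the model. In control mice, 5 of the 6 members were higher in dHC at an adjusted p under 0.05 and 0 were lower. Over all entries, 7.78% of the 463 were higher in dHC in this comparison. The median log2 difference was 0.64 over the members and 0.0055 over all entries tested. Dorsal and ventral hippocampus differ in many transcripts, and with bulk tissue more cells of a type and more RNA per cell cannot be told apart.

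Of the pair in Dleu2, mir-15a was higher in control dHC by 1.07 on the log2 scale, or 2.11-fold (SE 0.25, interval 0.57 to 1.58, adjusted p = 0.00143, edgeR). Its 2 control dHC libraries of block 1 were at 1544 and 2262 CPM, above the 4 control vHC libraries of that block at 345 to 1005. In block 2 the dHC libraries were at 301 and 637 and the vHC libraries at 170.1 and 279, and in block 3 at 349 and 408 against 195.4 and 298. In each block, every control dHC library was above every control vHC library.

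The same was seen for its neighbour mir-16-1, which was higher in control dHC by 0.66, or 1.57-fold (SE 0.10, interval 0.44 to 0.87, adjusted p = 2.06e-05, edgeR). The dHC libraries were at 5731 and 6635 CPM in block 1, where vHC reached 4187. They were at 4133 and 4159 in block 2, where vHC reached 2612, and at 3591 and 3766 in block 3, where vHC reached 2824.

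Of the pair on chromosome 11, mir-195a was higher in control dHC by 0.48, or 1.39-fold (SE 0.12, interval 0.23 to 0.72, adjusted p = 0.00379, edgeR). Its libraries did not overlap between regions within any block, though in block 2 the lowest dHC library, at 1399.6 CPM, was just above the highest vHC library, at 1397.6. mir-497a was higher by 0.62, or 1.54-fold (SE 0.18, interval 0.25 to 0.99, adjusted p = 0.0108). In block 3 its dHC library at 296 was below a vHC library at 345.

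mir-15b, of the pair in Smc4, was not called. It was at 0.30 in control dHC (SE 0.18, interval -0.07 to 0.66, adjusted p = 0.218, edgeR), an interval that holds 0 as well as the value of mir-16-1. Its within-block differences of 0.28, 0.57 and 0.30 had the same sign as those of the other members. Over the 6 members, 18 of 18 within-block differences were above 0 in control mice, from 0.28 to 1.48. These differences are not independent, since the mir-16 entries give the same miRNA and all members share the same libraries. The share of all entries with only positive differences was not computed. The 4 entries without overlap within any block were mir-15a, mir-16-1, mir-16-2 and mir-195a, and 4.32% of all entries tested did the same.

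After the swim, a separate set of libraries gave the same comparison, with 3 of the 6 members called higher in dHC (mir-15a, mir-16-1 and mir-16-2) and 0 lower, where 7.56% of all entries were called higher. The 3 calls are of 2 distinct mature miRNAs. The members' median difference was 0.34, beside -0.00015 over all entries. mir-15a was higher by 0.75, or 1.68-fold (SE 0.27, interval 0.20 to 1.30, adjusted p = 0.0472, edgeR), and mir-16-1 by 0.34, or 1.26-fold (SE 0.11, interval 0.11 to 0.56, adjusted p = 0.0306). mir-195a was at 0.24 (SE 0.13, interval -0.03 to 0.50, adjusted p = 0.214), mir-15b at 0.36 (SE 0.19, interval -0.03 to 0.74, adjusted p = 0.204) and mir-497a at 0.31 (SE 0.19, interval -0.08 to 0.71, adjusted p = 0.278).

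The calls after the swim were near the threshold. The dHC libraries of mir-15a were at 259 and 368 CPM in block 2 against 295 and 342 in vHC, a log2 difference of -0.04, while block 1 gave 1.02 and block 3 gave 1.23. For mir-16-1 the differences were 0.48, 0.14 and 0.40. Over the members, 16 of 18 differences were above 0, from -0.25 to 1.23, and the lowest was that of mir-497a in block 2. As in control mice, these differences are not independent of each other, and no such count was made over all entries. Only mir-16-1 and mir-16-2 had no overlap within any block, beside 6.48% of all entries. Without swim vHC library 27, swim vHC library 15 or swim dHC library 28, 0 members were called after the swim. Without swim dHC library 6, 1 was called, mir-15b. The difference between the region effects of control and swim mice is the interaction given above, at an adjusted p of 0.834 or more for every member with block in the model.

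Both comparisons depended on the covariates. With the 2 surrogate variables of the stress test in place of block, 0 members were called in either condition, and mir-15a in control mice was at -0.22 (SE 0.31, adjusted p = 0.684). One of these variables followed region, which accounted for 91.1% of its variance, and the other followed block (72.7%). Without any such term, 2 members, mir-16-1 and mir-16-2, were called in control mice and 0 after the swim. A setting added after the data were seen left out the 10 libraries of block 1 and also had no block term. With it, mir-15a (0.88, adjusted p = 0.0219), mir-15b (0.46, adjusted p = 0.0496) and mir-16-1 (0.61, adjusted p = 0.00189) were called in control mice. mir-195a (0.40, adjusted p = 0.0743) and mir-497a (0.51, adjusted p = 0.130) then were not.

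**Figure D3:**
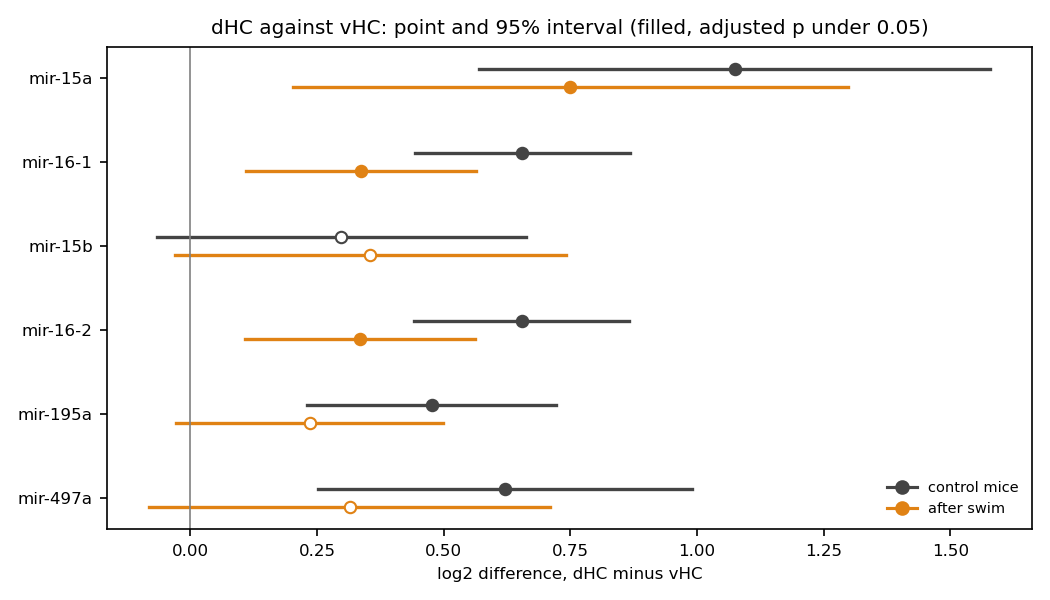
Log2 difference of dHC minus vHC for each member in control mice and after the swim, with 95% confidence intervals of the edgeR fit with block. Filled symbols have an adjusted p under 0.05. In control mice 5 of 6 are filled, from 0.48 (mir-195a) to 1.07 (mir-15a), and after the swim 3 of 6.

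The scaling set how many of all entries were called in each direction. With TMM, 36 of all entries were higher and 68 lower in control dHC. With DESeq2's size factors in edgeR there were 66 higher and 64 lower, with TMMwsp 63 and 64, and with DESeq2 as the tool 72 and 61. The median over all entries moved from 0.0055 to between 0.06 and 0.07 with these. The members stayed at 5 called, all higher, with each.

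Relatives of the family were compared too. Of the 7 other precursors of the wider group (mir-103-1, mir-103-2, mir-107, mir-195b, mir-322, mir-497b and mir-503) in the table, 5 passed the filter, and 0 were called between regions in control mice or after the swim. In control mice mir-103-1 was at -0.0079, mir-107 at -0.05 and mir-322 at -0.18, and mir-503 was at -0.38 (SE 0.15, adjusted p = 0.0576, edgeR). Their difference from the members was not tested. None of them was called for stress.

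Lists of miRNAs that mark other cell types moved with region too. All 3 oligodendrocyte entries (mir-219a-1, mir-219a-2 and mir-338) were higher in dHC in control mice and after the swim, by 0.47 to 0.99 in control mice. Their summed level was 3321 to 4939 CPM in control vHC, 3638 to 4714 in swim vHC, 4329 to 7617 in control dHC and 4578 to 6941 in swim dHC. Of the 6 tested choroid plexus entries, 3 were higher and 3 lower in control dHC, and 1 was higher and 3 lower after the swim. Their sum was 2213 to 2907 CPM in control vHC, 2382 to 2870 in swim vHC, 2286 to 5197 in control dHC and 1720 to 3779 in swim dHC. Of the 4 erythroid entries, 2 were lower in control dHC, mir-486a and mir-486b (both at -0.92). There mir-144 was at 0.40 and mir-451a at 0.15, neither of them called. After the swim 1 was lower, mir-486a (-0.42). The 4 erythroid entries summed to 781 to 998 CPM in control vHC, 749 to 903 in swim vHC, 645 to 951 in control dHC and 659 to 884 in swim dHC. No listed marker was at 0 in all 26 libraries. The part of these cells in the differences of the family was not tested.

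The endothelial and mural, microglial and neuronal lists had 0 entries called between regions, of 3, 4 and 6 tested. The endothelial and mural entries (mir-126a of endothelium, mir-143 and mir-145a of smooth muscle, and the untested mir-126b) summed to 12829 to 25182 CPM in control vHC and 17951 to 24804 in control dHC. The microglial and immune entries summed to 560 to 1012 CPM in control vHC and 858 to 1174 in control dHC.

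The third comparison was between the processing blocks, each of which held all 4 groups. Of the 463 entries, 53.1% were called over the 3 blocks together, and 5 of the 6 members were, all but mir-15b. The adjusted p (edgeR) was 3.90e-07 for mir-15a, 7.75e-06 for mir-16-1, 6.56e-08 for mir-195a and 6.52e-05 for mir-497a, and 0.338 for mir-15b. The same 5 were lower in block 2 than in block 1, as were 29.8% of all entries. They were also called between blocks 3 and 1, as were 52.1% of all entries in either direction, and each was lower in block 3, as were 139 of the 463. Between blocks 2 and 3, 0 members and 0% of all entries were called by edgeR, with 51 entries at an unadjusted p under 0.05 and none of them a member. DESeq2 and limma-voom also called 0 there, with 54 and 50 entries below that p.

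mir-15a fell by 1.65 on the log2 scale from block 1 to block 2 (SE 0.23, adjusted p = 1.82e-06, edgeR) and dropped by 1.497 to block 3 (SE 0.23). Over all groups its level was 345 to 2262 CPM in block 1 (median 901), 170.1 to 637 in block 2 (median 298) and 195.4 to 753 in block 3 (median 339). By size of the difference, mir-15a ranked 2 of the 463 entries for block 2 minus 1 and 5 for block 3 minus 1. mir-195a fell by 0.90 and by 0.80 (SE 0.11 each). Its level was 1779 to 3451 CPM in block 1, 991 to 1868 in block 2 and 1063 to 2079 in block 3. For both, every block 1 library was above every other library of its own group, as for 3.67% of all entries tested.

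mir-16-1 fell by 0.62 (SE 0.09) and 0.45 (SE 0.09), and mir-497a by 0.90 (SE 0.16) and 0.70 (SE 0.16). Within the 4 groups, mir-15a, mir-16-1, mir-195a and mir-497a were lower than in block 1 in 8 of 8 comparisons each. mir-15b was at -0.13 in block 2 (SE 0.16, interval -0.46 to 0.19) and at -0.26 in block 3 (SE 0.16, interval -0.58 to 0.07). It was lower in 5 of 8 comparisons within groups. The members' median was -0.76 for block 2 minus 1 and -0.58 for block 3 minus 1, beside -0.05 and -0.08 over all entries. With other scalings, the split of all entries called moved from 102 higher and 139 lower in block 3 to 130 and 108 (TMMwsp), and from 105 and 138 in block 2 to 137 and 119 (DESeq2's size factors). The members' counts were 5 and 5 under both.

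**Figure D4:**
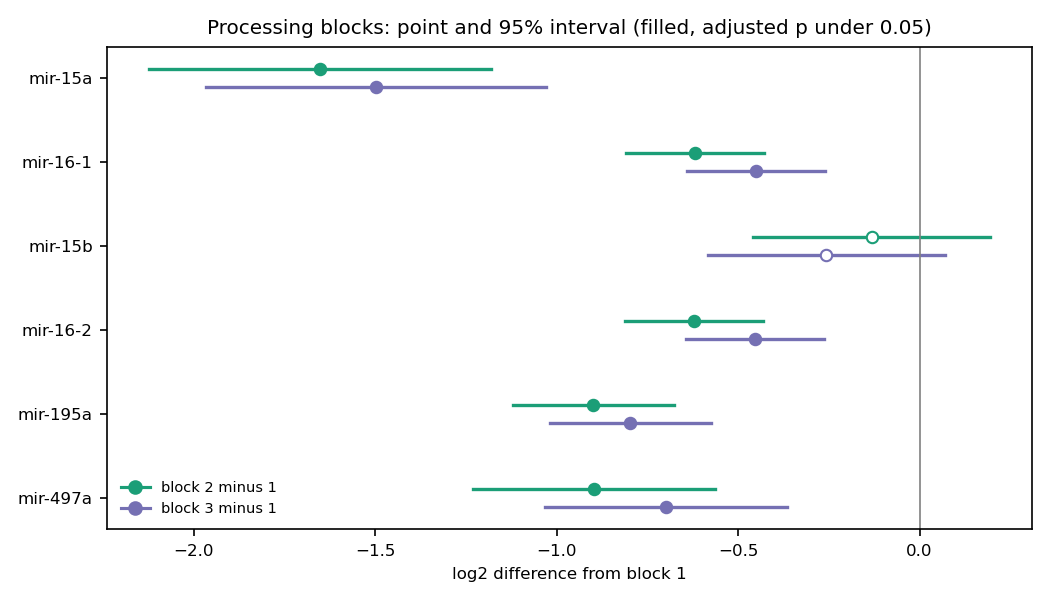
Log2 difference of blocks 2 and 3 from block 1 for each member, with 95% confidence intervals of the edgeR fit, filled where the adjusted p was under 0.05. All but mir-15b are to the left of 0 in both blocks, and mir-15a is farthest, at -1.65 and -1.497.

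Among the relatives, which also held calls between blocks, mir-107 was higher in block 2 by 0.31 (SE 0.09, adjusted p = 0.00640, edgeR) and mir-103-1 by 0.21 (SE 0.08, adjusted p = 0.0245), and mir-503 was higher by 0.44 (SE 0.13, adjusted p = 0.00543). Of the 5 tested, 4 were called higher in block 2 and 4 in block 3, and mir-322 was not called in either. Among the 4, mir-103-1 and mir-103-2 both give miR-103-3p, so their calls are of 1 mature miRNA. Of the cell type lists, neuronal entries were lower in blocks 2 and 3 for 3 of 6, the copies mir-124-1, mir-124-2 and mir-124-3 of the same miRNA. The neuronal entries, copies of 2 miRNAs, summed to 147169 to 222549 CPM in block 1, 126896 to 267480 in block 2 and 125216 to 175008 in block 3. Called higher and lower in block 2 were 2 and 1 of 4 erythroid entries, 1 and 1 of 6 choroid plexus entries, 0 and 1 of 4 microglial entries, 1 and 0 of 3 oligodendrocyte entries and 0 and 0 of 3 endothelial and mural entries. In block 3, 1 endothelial and mural entry was called higher (mir-126a, 0.44, adjusted p = 0.00199, edgeR) and 0 lower. Erythroid entries then had 0 higher and 1 lower (mir-144), and the counts of the other lists were as in block 2. The erythroid entries called in block 2 were mir-486a and mir-486b (both at 0.46) and mir-144 (-0.87). The median total of miRNA counts was 2614270 in block 1, 2958560 in block 2 and 2234610 in block 3. Their part in the block differences was not tested. The study's methods state that libraries were prepared in 3 batches, and the labels do not say whether the blocks are these batches.

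The ratio of neighbours within a library needs no scaling between libraries. The level of mir-15a relative to mir-16-1 had a median of 0.115 in control vHC, 0.109 in swim vHC, 0.132 in control dHC and 0.141 in swim dHC. mir-15b relative to mir-16-2 was at 0.109, 0.0814, 0.0872 and 0.0987, and mir-497a relative to mir-195a at 0.213, 0.224, 0.226 and 0.234 in the same order. As the mir-16 copies could not be told apart, the first and second ratio have nearly the same denominator, and do not measure a pair against its own mir-16 copy. mir-497a was below mir-195a in 26 of 26 libraries.

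None of the 3 ratios, or that of mir-16-1 to mir-16-2, differed for stress or region beyond the spread between libraries. In 16 two-sided exact permutation tests the lowest adjusted p was 0.839, and 0.667 with labels exchanged within blocks. The log2 ratio of mir-15a to mir-16-1 was -2.75 ± 0.88 (SD, n = 6) in control dHC and -2.97 ± 0.66 (SD, n = 8) in control vHC. Over the 26 libraries, the SD on the log2 scale was 0.22 for mir-497a to mir-195a, 0.64 for mir-15a to mir-16-1 and 0.44 for mir-15b to mir-16-2. The order of the SDs was not the same in every block. For mir-15b to mir-16-2 it was 0.62 in block 1, 0.19 in block 2 and 0.22 in block 3, beside 0.21, 0.24 and 0.25 for mir-497a to mir-195a.

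Between blocks, the ratio of mir-15a to mir-16-1 did differ. Its log2 mean was -2.32 in the 10 libraries of block 1 and -3.32 in the 16 of blocks 2 and 3, a difference of 0.99 (permutation test with 100000 resamples, p = 2e-05, adjusted p = 8e-05 over 4 ratios). This p was the lowest that so many resamples allow. In the same permutation test, mir-15b to mir-16-2 differed by -0.31 (p = 0.0906, adjusted p = 0.121) and mir-497a to mir-195a by -0.07 (adjusted p = 0.437). The ratio of mir-16-1 to mir-16-2 differed by -0.0027 (permutation adjusted p = 0.0199).

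**Figure D5:**
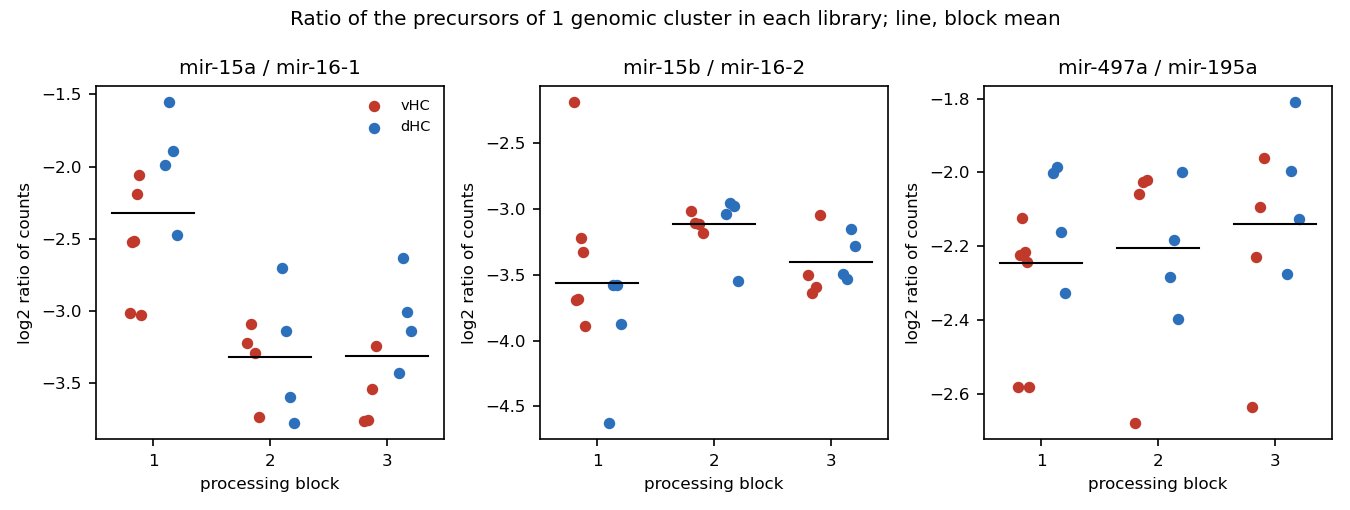
Log2 ratio of counts of the precursors of each genomic pair in every library by processing block, coloured by region, with the block mean as a line. The ratio of mir-15a to mir-16-1 is higher in block 1 (mean -2.32) than in blocks 2 and 3, and that of mir-497a to mir-195a keeps to a mean between -2.24 and -2.14 in all 3.

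With the block means taken out, the members varied together over the 26 libraries, except for mir-15b. Spearman's rho between mir-15a, mir-16-1, mir-195a and mir-497a was between 0.87 and 0.90, across their genomic pairs as well as within them. mir-15b had a rho of 0.43 to 0.53 with each of them, also 0.44 with its neighbour mir-16-2. These values share libraries, depth, the region difference described above and possibly reads split between entries, and are a description with no test.

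The entries outside the family most like each member by the same measure were mir-18a (rho 0.92) and mir-324 (0.88) for mir-15a. For mir-16-1 they were mir-34c (0.89) and mir-22 (0.88), for mir-195a mir-34c (0.82) and mir-32 (0.81), and for mir-497a mir-34c (0.89) and mir-18a (0.86). For mir-15b they were mir-664 (0.83) and mir-484 (0.80), which were on none of the other members' lists.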

How the data were processed

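Small RNA libraries of mouse dHC and vHC were analysed from the table of expected counts per annotated small RNA that the authors deposited, without normalization. The authors trimmed reads with cutadapt, collapsed identical reads with their molecular tags, removed the tags and quantified with Sports 1.0, and submitters' processing notes name GRCm38. A count is thus a distinct sequence and tag, and 29.5% of the deposited expected counts were not whole. They were rounded. Every column matched a sample by its title (0 without a match).

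The 6 members, marker lists and tests were chosen with earlier results of these data known. Entries named besides them were, by rule, the other precursors of the wider miR-15 group and the 2 entries most like each member. The design had assumed counts without fractions.

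Entries were filtered with filterByExpr (minimum count 10, minimum total 15), scaled by TMM over miRNA totals and fitted in R 4.3.3 with edgeR 4.0.16 (quasi-likelihood). Stress was tested with region, interaction and 2 surrogate variables (sva 3.50.0), and region and block with block as covariate. Adjustment was by Benjamini-Hochberg over 463 entries. Standard errors were derived from the F statistics. Ratios were tested by permutation (scipy 1.17.1). Marker lists covered endothelial and mural, erythroid, choroid plexus, microglial, oligodendrocyte and neuronal miRNAs. Alternatives used DESeq2 1.42.0, limma 3.58.1, other scalings, filters, covariates and libraries. The fits for stress were also run on simulated counts. These held a stress effect but no region or block effect, so that check does not cover those effects. Positions were from GENCODE vM21, matched by name for 6 of 6 members.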

Additional observations from a re-analysis of the deposited data

Results flagged for a closer look

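By Dixon's test, 2 of 40 groups of values held a library that stood apart, beside a rate of 1 in 20 for independent groups. These groups share libraries and counts, so that rate does not hold for them exactly. The log2 ratio of mir-15b to mir-16-2 in control vHC library 1 was -2.19, with the nearest other library of the group at -3.02. The log2 ratio of mir-497a to mir-195a in swim vHC library 15 was -2.58, with the nearest other at -2.23. Causes were not tested.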

How the results depend on the processing

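Across 3039 recomputed values, 2982 stayed on their side of the threshold, among them those of 75 uncalled values that changed sign. The count of 0 members called for stress held in every alternative, as did 5 for the block test, or 4 with the mir-16 copies summed. For region in control mice, 5 members were called, or 0 with surrogate variables in place of block and 2 with no block. With the surrogate variables, mir-15a turned to -0.22 and mir-497a to -0.19 in control mice, and mir-15a to -0.10 after the swim, where the median of all entries moved to -0.22 and -0.19. After the swim, 3 members were called, or 1 with no filter (where 1034 entries were tested), 0 with surrogate variables, 0 with no block and 0 with total miRNA count scaling without TMM. Without block 1 and with no block term, 1 was called, mir-15b (0.48, adjusted p = 0.0448, edgeR), which the main fit did not call. This setting and total count scaling were added after seeing the data. Leaving out each library in turn gave 5 to 6 members for region in control mice and 0 to 3 after the swim. The call of mir-15a after the swim was lost without each of 8 libraries. mir-15b gained a call in control mice without control vHC library 1 (0.43, adjusted p = 0.0418, edgeR), and in block 3 without swim dHC library 6. The causes were not tested. The shallowest library changed no count of members called. The groups share no replicate numbers, and no source says which libraries came from the same mouse. Consecutive library numbers form 12 sets of vHC and dHC of the same condition and block. With these as a replicate block (24 libraries, added after seeing the data), 6 members were called in control mice, mir-15b with 0.48 (adjusted p = 0.0153, edgeR), and 3 after the swim, and the interaction had 0.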
